A study of Mus musculus with 8 samples.

Results

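Ribosome footprints of mouse embryonic stem cells (line J1) that received shRNAs against eIF4A2 were compared with footprints of J1 cells that received control shRNAs. All genes of the deposited footprint table were taken, 12818 of the 13838 genes in the series, and 12723 of them held enough reads to be tested. Ribosome profiling sequences the stretches of mRNA that ribosomes shield from nuclease, so a gene's footprint level reports how many ribosomes were on its mRNA, and it moves with the amount of mRNA as well as with the use made of it. eIF4A2 is a DEAD-box RNA helicase closely related to eIF4A1, the helicase of the cap-binding complex that unwinds the leader of an mRNA before the small ribosomal subunit scans it. eIF4A2 has also been tied to the repression of mRNAs through the CCR4-NOT deadenylase, and the title of the series links it to developmental potency and histone H3.3.

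There were 2 footprint libraries per group, described as biological replicates. J1 is an established line of strain 129S4/SvJae, kept here off feeder cells in serum and leukemia inhibitory factor. Cells of both groups were infected on day 0, carried an shRNA vector, went through 3 days of puromycin at 1 μg/mL and were harvested on day 4.5 after cycloheximide at 0.1 mg/mL for 1 min. The control group is named for shNT and shGFP and the knockdown group for the hairpins sheIF4A2-2 and sheIF4A2-3. The labels do not say which hairpin went into which replicate, so hairpin and replicate cannot be told apart. A separate table of total RNA from the same 2 conditions, also 2 libraries each, is used below only to set beside the footprints.

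The footprint libraries held between 7947827 and 10682677 reads, so that 1 read was worth 0.0991 to 0.113 CPM, the unit of all levels below (reads divided by a library size that differs a little from their sum). These reads were read back from the deposited values. For control 2, which gives 10682677 reads and 0.0991 CPM, an automatic check did not accept them. Over the 8205 genes with a mean of 10 CPM or more, the SD of the log2 difference was 0.423 for the pair of knockdown libraries, 0.372 for the control pair and 0.422 to 0.521 for the 4 pairs across groups. The knockdown libraries were therefore about as far from each other as from the controls. All log2 differences are knockdown minus control on log2(CPM + 1), which understates differences of genes with few reads, and ± gives the standard error of limma, a linear model that pools the spread between genes.

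Eif4a2, the target, had 311 and 153 CPM in the knockdown and 395 and 409 CPM in the control. Both knockdown libraries lay below both controls, and knockdown 2 held the lower level. The log2 difference was -0.88 ± 0.29 and did not pass limma's threshold (adjusted p = 0.273). With single libraries left out the adjusted p from limma ran from 0.0333 without knockdown 1, where the lone knockdown library is assumed to vary like the controls, to 0.927 without control 2. Its close relative Eif4a1 had 2913 and 4202 CPM in the knockdown and 4601 and 4486 CPM in the control, so that knockdown 1 stood well below the other 3 libraries and knockdown 2 just below the controls. The exon junction helicase Eif4a3 had 306 and 384 CPM in the knockdown and 331 and 390.0 CPM in the control, so that its groups overlapped. Of the genes for histone H3.3, the replacement variant of histone H3, H3f3a had 179 and 199 against 222 and 289.7 CPM and H3f3b 547 and 542 against 657 and 639 CPM. Both H3.3 genes were lower in both knockdown libraries, with log2 differences of -0.43 ± 0.18 and -0.25 ± 0.17 and adjusted p-values from limma of 0.372 and 0.567.

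Over all 12723 genes limma called 0 (0.0%) at an adjusted p of 0.05. The smallest adjusted p was 0.0692, and 1636 genes had an unadjusted p below 0.05. Genes are therefore described by where their libraries lay. Both knockdown libraries lay above both controls in 2835 genes (22.3%) and below both in 2860 (22.5%). The nearest knockdown and control libraries were at least 1.5-fold apart, taken on CPM + 1, in 233 genes on the higher side (1.83%) and 226 on the lower side (1.78%). Every count of list members below is to be read beside these shares of all genes. Just inside that limit lay Zfp36l2 (16.9 and 15.8 against 10.2 and 9.91 CPM) on the higher side and Mettl5 (20.03 and 26.6 against 40.4 and 74.0 CPM) on the lower. Just outside it lay Trmt12 (10.8 and 9.10 against 5.74 and 5.35 CPM) and Dpys (6.08 and 3.98 against 11.3 and 9.61 CPM). When each library was centred on its own median, 188 genes were at least 1.5-fold apart on the higher side and 280 on the lower, a split that leaned to the lower side, and limma then called 15 genes higher and 25 lower, among them Car4, Zscan4f, Myl9, Nes, Gadd45g and Pmaip1 on the higher side and Ly75, Spp1, Pfkp, Bmp4 and Bnip3 on the lower.

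**Figure D1:**
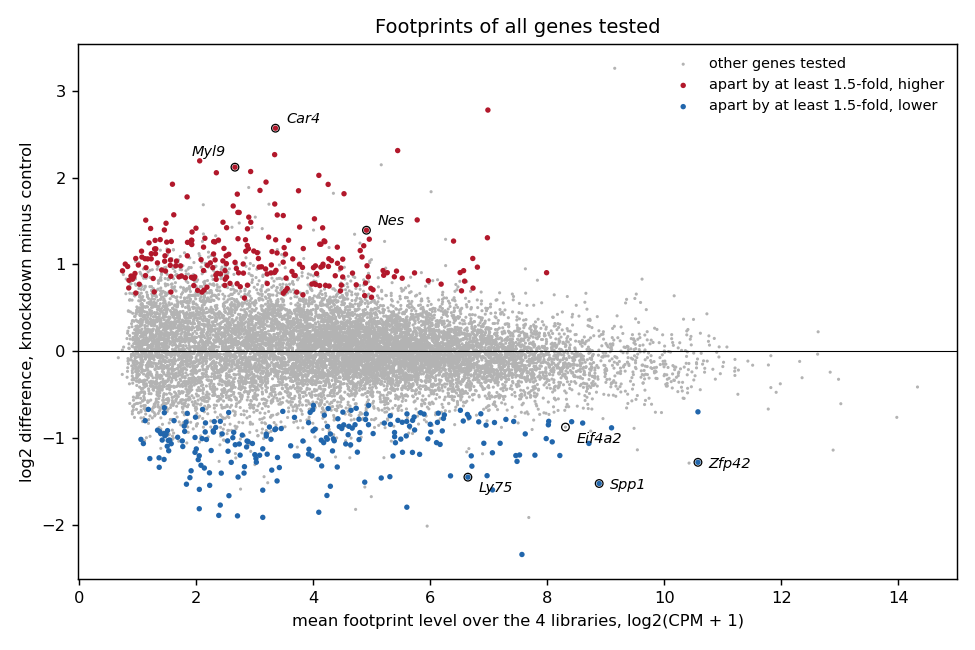
Mean footprint level over the 4 libraries, in log2(CPM + 1), against the log2 difference of knockdown minus control, 1 point per gene tested. Red and blue points are the 233 and 226 genes whose nearest knockdown and control libraries were at least 1.5-fold apart; named genes are ringed, and Eif4a2 lies at -0.88 among genes of high level that spread less than genes of low level.

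The group with the highest median of the 97 described was that of smooth muscle and serum response genes. Serum response factor (SRF) and its partners of the MRTF family switch on genes of the contractile actin cytoskeleton when free actin is used up, and a second set of SRF partners drives the immediate early genes that answer growth factors within minutes. SRF binds the CArG box. Of the 28 tested members of the group with a promoter in the RefSeq table (GRCm38.p6), 5 (17.9%) held a CArG box in the 250 bases before the gene start, namely Cnn2, Dusp5, Myl6, Myl9 and Srf, against 135 of 9800 (1.38%) of all genes tested. The list was made of serum response genes, so this excess follows from how it was made and says nothing about the knockdown. Of the 21 members higher in both knockdown libraries 16 had a promoter, and 3 of those (18.8%) held the box, near the share of the list. The 5 promoters are printed with the CArG box in capitals and 40 bases on each side.
Myl9 (chr2:156775263-156775352, plus strand): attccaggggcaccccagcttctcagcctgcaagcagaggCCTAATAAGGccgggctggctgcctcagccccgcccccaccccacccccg
Cnn2 (chr10:79988504-79988593, plus strand): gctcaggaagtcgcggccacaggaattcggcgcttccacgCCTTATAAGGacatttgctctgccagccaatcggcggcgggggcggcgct
Dusp5 (chr19:53529023-53529122, plus strand): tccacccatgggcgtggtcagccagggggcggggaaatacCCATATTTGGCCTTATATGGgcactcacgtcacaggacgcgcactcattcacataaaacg
Srf (chr17:46556175-46556284, minus strand): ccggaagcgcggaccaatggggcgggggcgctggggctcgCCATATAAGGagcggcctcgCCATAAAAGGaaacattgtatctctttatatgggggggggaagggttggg
Myl6 (chr10:128493010-128493099, minus strand): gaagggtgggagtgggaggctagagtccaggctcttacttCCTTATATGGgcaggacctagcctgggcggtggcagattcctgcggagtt
The boxes began 161 bases before the gene start in Myl9, 56 in Cnn2 and 50 in Myl6, and Dusp5 and Srf held 2 boxes each, those of Dusp5 side by side.

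Of the 34 tested members 21 were higher in both knockdown libraries and 6 lower, where 22.3% and 22.5% of all genes were, and the median log2 difference was 0.46 (0.29 to 0.60 with 1 library left out), against 0.01 for all genes tested. With knockdown 1, knockdown 2, control 1 or control 2 left out, 23, 26, 26 and 21 members were higher, where 36.9%, 40.3%, 35.3% and 32.5% of all genes were. None of the members passed limma over all genes. The list was put together with earlier results of these data known.

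Contractile genes led it. Myl9, a regulatory light chain of non-striated myosin, had 7.31 and 11.4 CPM in the knockdown and 1.38 and 1.29 CPM in the control, a log2 difference of 2.12 ± 0.32 (limma adjusted p = 0.0703). Cnn2, the calponin found outside smooth muscle, had 37.0 and 38.7 against 16.8 and 17.8 CPM. Tagln (transgelin or SM22, an actin-bundling protein) had 5.29 and 7.43 against 1.38 and 2.78 CPM. In Cnn2 the libraries of a group lay close together, while in Tagln they were more spread. Acta2, smooth muscle actin, was near the limit of detection at 2.81 and 2.51 against 1.38 and 0.793 CPM, and the enteric smooth muscle actin Actg2 had 27.1 and 25.3 against 20.6 and 11.001 CPM. The tropomyosins Tpm1 (89.6 and 99.1 against 70.1 and 73.7 CPM) and Tpm2 (43.3 and 45.5 against 36.2 and 28.1 CPM), which coat actin filaments, were higher by less.

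Immediate early genes were mixed. The AP-1 subunits Fos (3.71 and 8.997 against 2.87 and 2.18 CPM) and Junb (55.6 and 66.2 against 28.6 and 44.3 CPM) were higher in both knockdown libraries, and knockdown 2 was the highest of the 4 in both. Fosl1, Fosl2, Fosb and Jun were also higher, at levels between 0.198 CPM in control 2 for Fosb and 10.8 CPM in knockdown 1 for Jun. Egr1, a zinc finger factor of the same early response, lay the other way, with 10.8 and 10.3 against 19.2 and 26.3 CPM and a log2 difference of -1.03 ± 0.24. Among the MAP kinase phosphatases of the list Dusp5 (7.88 and 10.8 against 4.25 and 2.87 CPM) and Dusp6 (84.5 and 92.9 against 73.5 and 74.8 CPM) were higher, and Dusp1 overlapped. Srf itself overlapped (23.4 and 28.35 against 27.7 and 23.3 CPM), and its partners Mrtfa (42.9 and 41.2 against 36.4 and 24.6 CPM) and Mrtfb (21.9 and 25.4 against 16.5 and 17.6 CPM) were higher.

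Apart from Egr1, the members that lay lower were abundant ones. Myl6, the essential light chain of the same myosin and the member with the highest level, had 454 and 525 against 621 and 632 CPM. Vimentin (Vim), an intermediate filament protein, had 222 and 233.6 against 313 and 319.9 CPM, and Tagln2, the transgelin of non-muscle cells, 203 and 250.2 against 331 and 327 CPM. Myl12a and Cnn3 were also lower in both knockdown libraries. Total RNA had a median log2 difference of 0.30 over the group, and for Myl9 it was 8.37 and 7.89 against 1.03 and 0.998 CPM, for Cnn2 53.6 and 54.6 against 22.7 and 21.5 CPM. Markers of fibroblasts, the cells commonly used as feeders, were summed beside them. Of 15 markers 7 were in the table, with Col3a1, Dcn, Lum and Postn not listed, and they summed to 296 and 314 CPM in the knockdown against 422 and 402 in the control. Vim, itself a member of the serum response list, made up most of that sum. The part of such cells in these values was not tested.

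**Figure D2:**
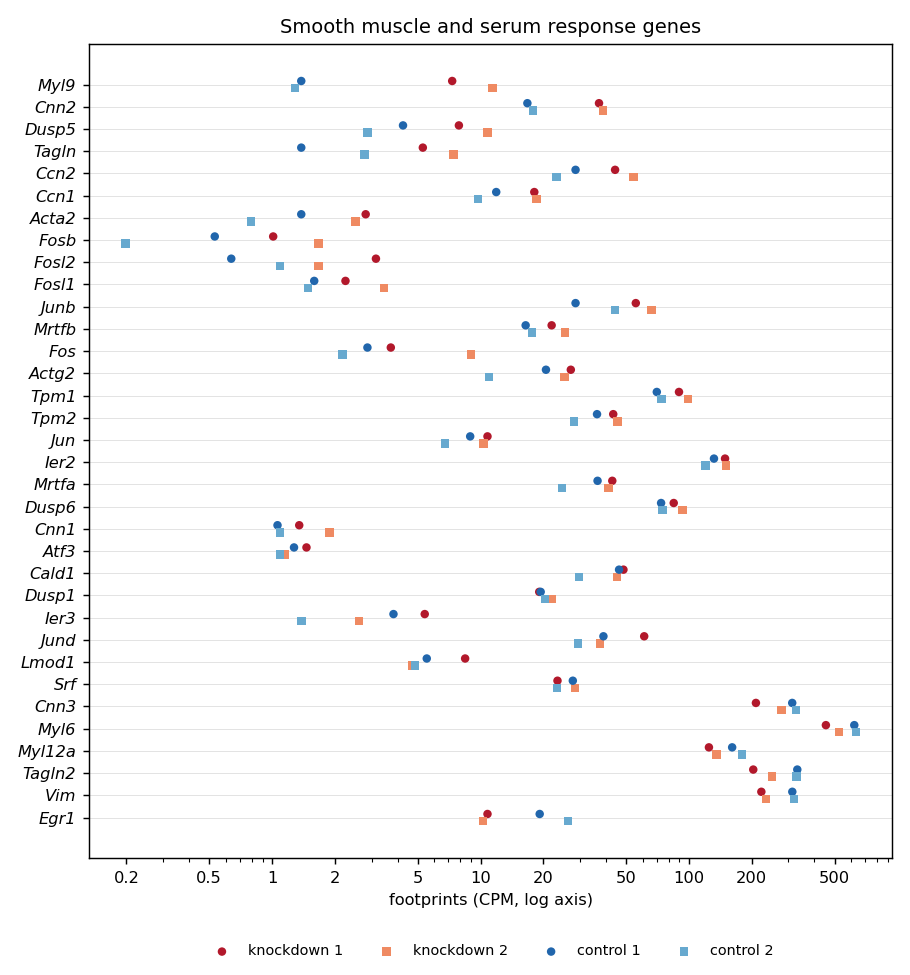
Footprint levels in CPM, on a log axis, of the 34 tested smooth muscle and serum response genes in each of the 4 libraries, ordered by the distance between the groups, with small vertical offsets so that points do not hide each other. The knockdown libraries (red) lie to the right in the 21 genes at the top, from Myl9 to Cnn1, and to the left in the 6 at the bottom, from Cnn3 to Egr1.

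Targets of YAP and TEAD, the transcription factors that the Hippo kinases hold back, share members with that group. Of 22 tested genes of the Hippo pathway and YAP targets 9 were higher in both knockdown libraries and 1 lower, with a median of 0.23 (0.15 to 0.51 with 1 library left out). The matricellular proteins Ccn2 (44.2 and 54.2 against 28.6 and 23.1 CPM) and Ccn1 (18.1 and 18.5 against 11.9 and 9.71 CPM), the best known YAP targets, counted in both groups. Tead3, a TEAD factor, had 4.61 and 5.23 against 2.66 and 2.78 CPM. Yap1 itself had 132 and 109 against 91.9 and 86.6 CPM and the LIM protein Ajuba 155 and 139 against 101 and 107 CPM. In these 5 genes both knockdown libraries stood above both controls. Tead4, the TEAD of the trophectoderm, was the member that lay lower, with 6.53 and 4.29 against 9.45 and 8.82 CPM.

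Wnt signalling acts through Frizzled receptors, beta-catenin and the TCF and LEF factors, and serves the self-renewal of stem cells in culture and the exit toward mesoderm. Of 45 tested genes of the pathway 18 were higher and 10 lower, 6 of them at least 1.5-fold apart on the higher side and 1 on the lower, and the median was 0.17 (0.04 to 0.22 with 1 library left out). Several receptors were on the higher side. Fzd2 had 16.5 and 23.6 CPM in the knockdown and 5.84 and 3.87 CPM in the control (log2 difference 1.85 ± 0.29, limma adjusted p = 0.0703). The more abundant Fzd7 had 127 and 116 against 70.8 and 67.2 CPM, and Fzd8 (4.28 and 4.29 against 2.12 and 2.48 CPM) and Fzd10 (3.83 and 3.03 against 1.27 and 1.19 CPM) were higher at low levels. Lgr4, a receptor for the R-spondins that strengthen the signal, had 83.3 and 86.2 against 60.6 and 65.4 CPM.

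The factor Lef1 had 16.8 and 21.1 against 6.27 and 6.44 CPM, and with 21.3 and 21.0 against 7.54 and 3.33 CPM its total RNA was higher too. Its promoter also held a CArG box, outside the list above.
Lef1 (chr3:131112651-131112740, plus strand): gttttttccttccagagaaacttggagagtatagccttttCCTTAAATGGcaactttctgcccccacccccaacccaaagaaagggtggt
Axin2 (22.3 and 19.98 against 13.9 and 13.1 CPM) and Znrf3 (15.9 and 11.6 against 7.54 and 7.63 CPM), both targets of the pathway that damp it, were higher with Sp5. Among the lower members were 3 secreted proteins. Dkk3 had 1.24 and 1.57 against 8.18 and 6.34 CPM. The antagonist Notum, a lipase, had 9.79 and 10.6 against 14.3 and 22.4 CPM. The antagonist Sfrp1 had 56.6 and 35.9 against 94.1 and 72.2 CPM. Beta-catenin (Ctnnb1), the member with the most footprints, overlapped at 850.1 and 1071 against 1100.3 and 1018 CPM. Notum and Sfrp1 were chosen after their values were seen.

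Other signalling groups differed in balance. Among all genes tested 22.3% were higher and 22.5% lower. Genes of the Hedgehog pathway and cilia transport were higher in 9 and lower in 13 (31.7%) of 41 cases. Receptor tyrosine kinases and their ligands were higher in 7 and lower in 7 of 34 (20.6% each). The medians were 0.01 for both lists. The higher share of both lists and the lower share of the receptor tyrosine kinases were thus near those of all genes. In the Notch pathway, in which a ligand triggers the cleavage of a receptor on a neighbouring cell, 10 of 25 genes were higher and 3 lower (median 0.20, 0.11 to 0.32 with 1 library left out). Hes6 had 17.4 and 14.6 against 7.12 and 7.14 CPM and the receptor Notch2 90.5 and 132 against 69.0 and 61.0 CPM, whereas the target Hes1, a repressor with which Hes6 interferes, had 22.95 and 20.4 against 36.5 and 36.3 CPM. The ligand Dll1 had 8.10 and 10.9 against 4.25 and 5.35 CPM. Hes6 and Hes1 thus lay on opposite sides, each with its libraries close together. Among ephrins and Eph receptors, which sort cells by contact, 6 of 17 were higher and 1 lower (median 0.31, 0.07 to 0.41 with 1 library left out), led by Efnb2 at 8.89 and 7.64 against 4.35 and 4.56 CPM. In total RNA Efnb2 stood further apart, at 32.7 and 33.2 against 11.3 and 12.4 CPM. Of MAP kinase phosphatases and Sprouty genes, which feed back on growth factor signals, 9 of 23 were higher and 1 lower (median 0.19, 0.09 to 0.26 with 1 library left out), with Dusp2 at 9.90 and 6.90 against 2.87 and 1.19 CPM and Spred1 at 41.2 and 33.2 against 23.8 and 24.1 CPM. The abundant Sprouty gene Spry4 overlapped. Genes of NF-kB and TNF signalling were higher in 16 and lower in 6 of 45 cases (median 0.14, 0.08 to 0.20 with 1 library left out), with the kinase adaptors Tab3 (19.13 and 16.7 against 8.60 and 11.9 CPM) and Tab2 (28.2 and 21.3 against 16.3 and 16.2 CPM) ahead and none past 1.5-fold.

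G protein-coupled receptors and G proteins held 6 of 62 genes (9.68%) at least 1.5-fold apart on the lower side and 1 (1.61%) on the higher. Of all genes 1.78% and 1.83% were. The alpha subunits Gna15 (3.71 and 3.77 against 9.13 and 12.1 CPM) and Gna14 (1.80 and 3.35 against 9.56 and 7.63 CPM), both of the Gq class that activates phospholipase C, were among them, with Gpr160 at 2.70 and 2.51 against 6.05 and 8.13 CPM and Rgs22 at 0.788 and 1.15 against 3.51 and 5.45 CPM. The median of the list was near 0, at -0.04, with 11 members higher (17.7%) and 20 lower (32.3%), against 22.3% and 22.5% of all genes. The most abundant member, the beta subunit Gnb1, had 189 and 170.1 against 235 and 212 CPM.

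The 15 genes with the widest distance on the higher side were from many families. Car4, a membrane-bound carbonic anhydrase, had 9.68 and 23.9 CPM in the knockdown and 1.70 and 1.78 CPM in the control. Calml3, a calmodulin-like protein of epithelia, had 20.1 and 33.0 against 4.25 and 7.24 CPM, and Cilp2, a protein of cartilage matrix, 12.5 and 12.2 against 2.44 and 2.97 CPM. In Car4 and Calml3 the knockdown libraries differed from each other by more than 1.5-fold, in Cilp2 hardly at all. The cyclin-like Ccno, needed to multiply centrioles, had 9.34 and 13.3 against 2.66 and 1.29 CPM. Runx1t1, a corepressor, had 10.01 and 8.26 against 2.34 and 1.49 CPM and Gadd45g, a stress sensor that binds cell cycle kinases, 14.7 and 16.8 against 4.14 and 5.25 CPM. Kcnj3, an inward rectifier potassium channel, had 7.43 and 10.4 against 1.91 and 2.58 CPM. All 15 stood at control levels of 7.86 CPM or less. Sertad4 and AA474408 were the others, beside Zscan4f and Usp17le of the 2-cell-like state, whose near-identical copies leave the split of reads uncertain. The muscle calcium store protein Casq2 had 23.1 and 23.2 against 7.86 and 6.94 CPM, and its total RNA lay lower in both knockdown libraries, at 0.868 and 0.902 against 1.03 and 1.66 CPM.

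On the lower side the 15 widest held more abundant genes. Ly75 (CD205), an endocytic receptor of dendritic cells and thymus, had 54.6 and 50.6 CPM in the knockdown and 145 and 147 CPM in the control (log2 difference -1.45 ± 0.16, limma adjusted p = 0.0692). Spp1 (osteopontin), a secreted phosphoprotein, had 223 and 263 against 624 and 783 CPM, and Lgals3 (galectin-3), a lectin that binds galactosides, 12.6 and 16.2 against 43.4 and 41.8 CPM. The phosphofructokinase Pfkp had 177 and 182 against 419 and 409 CPM. In these 4 genes the libraries of a group lay close to each other and far from the other group. The septin Sept1 had 65.5 and 67.7 against 165 and 201 CPM, Hmces, which shields abasic sites in DNA, 46.7 and 39.3 against 112 and 123.6 CPM and Xrcc6 (Ku70), which binds broken DNA ends, 61.4 and 62.5 against 140.1 and 149 CPM. Its partner Xrcc5 (Ku80) had 182 and 276 against 325 and 330.3 CPM. Morc1, which represses transposons in the male germline, had 54.6 and 76.8 against 172 and 229 CPM, and the adhesion molecule Ncam1 18.6 and 22.1 against 52.2 and 62.2 CPM. Fetub, Tgm3, Pgc, Gtsf1l, Hydin and Gna15 completed the set at control levels between 8.82 and 31.1 CPM.

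**Figure D3:**
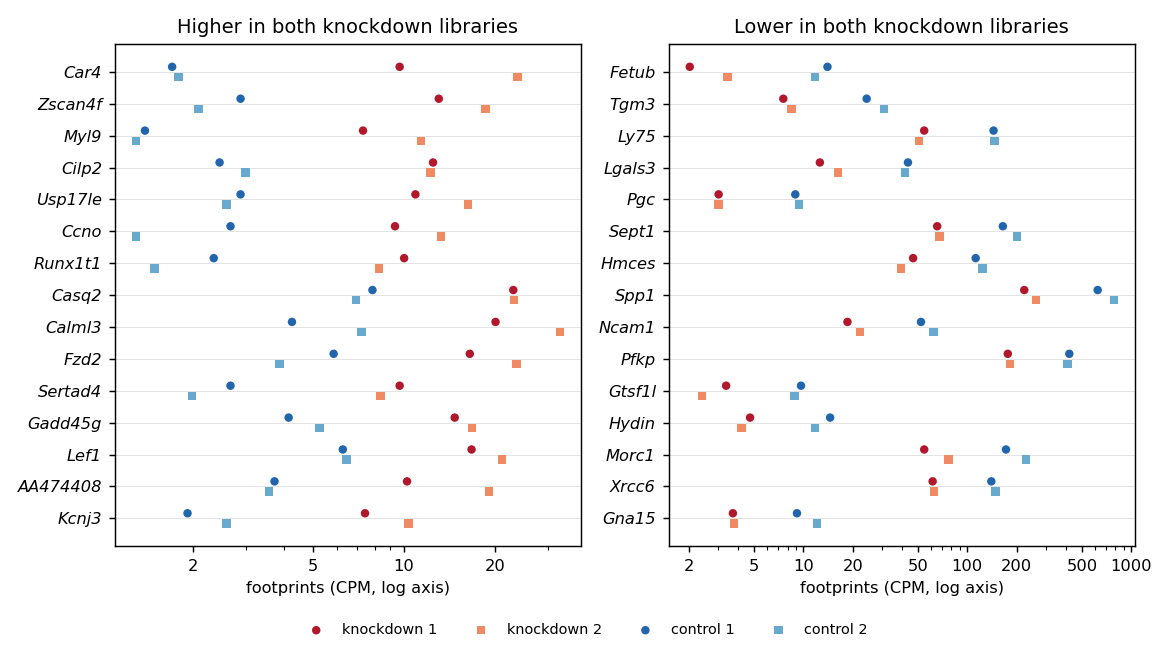
Footprint levels in CPM, on a log axis, of the 15 genes per direction with the widest distance between the nearest knockdown and control libraries (mean of at least 5 CPM), with small vertical offsets. Circles are replicate 1 and squares replicate 2, and numbers mark no order or pairing; control levels on the left side stay at or below 7.86 CPM, while the right side reaches 783 CPM for Spp1 in control 2.

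Lipid uptake held the lowest median among the metabolic groups. Cells take up cholesterol as lipoprotein particles through receptors at the cell surface and hand it on through lysosomes and oxysterol-binding proteins. Of 23 tested genes of cholesterol uptake and lipid transport 12 were lower in both knockdown libraries and 3 higher, and the median was -0.25 (-0.30 to -0.19 with 1 library left out), with -0.27 in total RNA. Lrp1, an endocytic receptor of lipoproteins, had 83.6 and 78.7 CPM in the knockdown and 162 and 127 CPM in the control (log2 difference -0.82 ± 0.18), and the lipoprotein Apoe, the member with the most footprints, 382 and 386 against 768 and 656 CPM. In both genes the knockdown libraries were alike and below the controls. The endocytic receptor Lrp2 (megalin) had 117 and 199 against 111 and 121 CPM. The fatty acid-binding protein Fabp5 lay on the other side, at 98.0 and 106 against 69.6 and 62.8 CPM.

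Genes of glutathione and of the NRF2 response, which remove peroxides and electrophiles, were lower in 15 and higher in 3 of 31 cases, with a median of -0.23 (-0.29 to -0.10 with 1 library left out). Prdx3, the peroxiredoxin of mitochondria, had 25.8 and 29.9 against 52.0 and 56.3 CPM. The glutathione transferases Gsta4 (169 and 201 against 344 and 321 CPM) and Gstm1 (13.7 and 15.2 against 25.9 and 28.5 CPM) were also at least 1.5-fold apart. Superoxide dismutase 1 (Sod1) had 599 and 587 against 889 and 856 CPM, Nqo1, a marker of NRF2 activity, 22.95 and 22.2 against 37.3 and 33.3 CPM, and Gclm, a subunit of the enzyme that starts glutathione synthesis, 32.9 and 36.3 against 48.3 and 54.2 CPM. Each of them was lower in both knockdown libraries, and Prdx1, the most abundant member, overlapped at 859 and 1431 against 1403 and 1708 CPM. Gstk1 lay higher, at 4.16 and 5.54 against 2.55 and 2.08 CPM.

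Selenoproteins, which carry selenocysteine read from a recoded stop codon, several of which also remove peroxides, had more members higher than lower. Of 23 genes for selenoproteins and their factors 8 were higher and 2 lower (median 0.17, 0.08 to 0.37 with 1 library left out). Gpx4, the peroxidase that protects membranes from lipid peroxides, had 242 and 341 against 158 and 167 CPM, and Selenot of the endoplasmic reticulum 58.3 and 52.2 against 31.5 and 25.97 CPM. Eefsec, the elongation factor that delivers the selenocysteine tRNA, lay lower at 26.8 and 29.2 against 43.0 and 41.8 CPM. Total RNA of Gpx4 was 641 and 579 against 384 and 500.5 CPM.

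One-carbon metabolism, which mouse stem cells feed from threonine, was lower in 13 and higher in 3 of 24 genes (median -0.16, -0.26 to -0.11 with 1 library left out). Cth, which makes cysteine, had 45.1 and 54.0 against 89.2 and 86.8 CPM. The glycine cleavage enzyme Gldc had 151 and 159.8 against 216 and 194 CPM. Threonine dehydrogenase (Tdh), the most abundant member, had 513 and 702 against 801 and 729 CPM, with knockdown 2 just below the controls. The mitochondrial folate enzyme Mthfd2l lay higher, at 1.91 and 1.99 against 0.956 and 1.29 CPM. The tricarboxylic acid cycle was lower in 12 and higher in 2 of 31 genes (median -0.13, -0.30 to -0.04 with 1 library left out), with none past 1.5-fold. Malic enzyme (Me1) had 12.9 and 15.1 against 21.1 and 19.52 CPM, and the kinase Pdk2, which holds back pyruvate entry, 3.15 and 2.93 against 4.99 and 3.96 CPM.

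Transport across the plasma membrane was spread wide. Of 174 solute carriers outside mitochondria 60 were higher and 31 lower (median 0.15, 0.09 to 0.19 with 1 library left out), with 9 and 5 at least 1.5-fold apart. The citrate carrier Slc13a5 (6.19 and 4.08 against 13.8 and 14.9 CPM) and the glutamate carrier Slc1a1 (3.49 and 2.72 against 7.54 and 7.73 CPM) lay lower. Slc38a6, an amino acid carrier relative, had 8.21 and 8.06 against 3.93 and 3.87 CPM, and the metal ion carrier Slc11a1 2.14 and 0.942 against 5.63 and 4.96 CPM. The glucose carrier Slc2a3, the most abundant, had 824 and 954 against 941 and 744 CPM. Ion channels were higher in 24 and lower in 7 of 72 genes (median 0.21, 0.10 to 0.34 with 1 library left out). The 2-pore potassium channel Kcnk1 had 16.5 and 21.0 against 8.82 and 6.64 CPM, the calcium channel subunit Cacna2d1 6.19 and 6.28 against 2.97 and 3.17 CPM, and the stretch-activated Piezo1, the most abundant of the channels, 231 and 284 against 184 and 170.4 CPM. Piezo1 was higher in both libraries by less than Kcnk1.

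Groups of RNA processing differed in the balance of their counts. Exon junction and nonsense-mediated decay genes were higher in 7 and lower in 3 of 18 (median -0.01, -0.09 to 0.07 with 1 library left out). Genes of the RNA exosome and Xrn nucleases were higher in 7 and lower in 3 of 20 (median -0.04, -0.12 to 0.14). The signs of both medians turned with 1 library left out. Without knockdown 2 the counts were 7 higher and 9 lower for the former, and 7 higher and 11 lower for the latter. Of 41 SR and hnRNP proteins, which choose splice sites and coat nascent RNA, 16 were lower and 6 higher (median -0.10, -0.20 to -0.06 with 1 library left out), and of 65 core spliceosome genes 21 and 6 (median -0.11, -0.23 to 0.00 with 1 library left out). Without knockdown 1 the core spliceosome had 29 higher and 27 lower, and under quantile normalization the median was -0.0041 for SR and hnRNP genes and -0.01 for the core spliceosome. Hnrnpk had 1166 and 1504 against 1788 and 1819 CPM, Hnrnpf 867 and 942 against 1182 and 1177 CPM and the poly(C)-binding protein Pcbp1 304 and 313 against 466 and 406 CPM. The total RNA median of SR and hnRNP genes was 0.05. Snrnp48, of the minor spliceosome, had 74.0 and 62.2 against 123.7 and 115 CPM and the Sm protein gene Snrpd1 182 and 197 against 276 and 352 CPM. The SUMO pathway, which tags nuclear proteins with a small modifier, was lower in 7 and higher in 0 of 18 genes (median -0.22, -0.30 to -0.12 with 1 library left out), with the activating enzyme subunits Sae1 (355 and 399 against 512 and 478 CPM) and Uba2 (641 and 754 against 849 and 947 CPM) both lower by less than 1.5-fold, and the protease Senp3 (261 and 251 against 315 and 344 CPM) with them.

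By contrast, RNA-binding proteins known from embryonic cells were higher in 10 and lower in 4 of 28 cases (median 0.17, 0.09 to 0.20 with 1 library left out). Esrp1 (33.3 and 42.2 against 15.6 and 16.8 CPM) and Esrp2 (11.4 and 18.5 against 5.74 and 5.85 CPM), the splicing factors of epithelial cells, were both more than 1.5-fold apart, and so was Mex3a (44.8 and 34.0 against 20.1 and 18.4 CPM). Lin28a, which blocks let-7 microRNAs, had 175 and 163 against 112 and 138 CPM. Fxr1, a relative of the fragile X protein, lay lower at 335 and 373 against 514 and 523 CPM, and so did L1td1, the most abundant, at 1049 and 1385 against 1490.4 and 1725 CPM. Total RNA of Esrp1 was 45.7 and 51.0 against 20.9 and 13.9 CPM.

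Chromatin and transcription factor genes followed. Of 29 histone lysine methyltransferases outside Polycomb 12 were higher and 4 lower (median 0.13, 0.13 to 0.23 with 1 library left out), with the H3K9 enzyme Suv39h1 at 30.5 and 28.8 against 16.3 and 11.5 CPM and the H3K4 enzyme Kmt2a at 97.9 and 83.4 against 59.1 and 53.2 CPM. Zinc finger genes named Zfp, many of them KRAB repressors, were higher in 96 and lower in 36 of 328 (median 0.10, 0.00 to 0.18 with 1 library left out). Zfp334 had 24.3 and 24.6 against 11.047 and 12.9 CPM, whereas Zfp42 (Rex1), the marker of naive cells, had 959 and 820.2 against 2027 and 2300.5 CPM. The Klf and Sp family, zinc finger factors of GC-rich promoters, was lower in 8 and higher in 6 of 20 genes (median -0.16, -0.27 to -0.05 with 1 library left out). Klf2 and Klf5, which act in the naive pluripotency network, had 264 and 235.6 against 406 and 375 CPM and 152 and 224 against 278 and 329 CPM, and Klf3 39.3 and 37.3 against 69.6 and 61.7 CPM. The Wnt target Sp5 lay higher, at 1.91 and 2.09 against 0.956 and 0.892 CPM, and Sp6 had 5.29 and 4.18 against 2.23 and 1.78 CPM. Imprinted genes were higher in 13 and lower in 5 of 33 cases (median 0.16, 0.12 to 0.27 with 1 library left out), with the paternally expressed Ndn and Igf2 at least 1.5-fold apart on the higher side. Igf2, a growth factor, had 5.40 and 6.49 against 2.34 and 3.17 CPM. Cd81 had 135 and 123.8 against 239 and 199.5 CPM and Gatm 3.71 and 4.18 against 2.23 and 0.991 CPM.

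Kinetochore genes were lower in 11 (26.2%) and higher in 3 (7.14%) of 42 (median -0.10, -0.19 to -0.05 with 1 library left out). Subunits of the anaphase-promoting complex were lower in 6 (31.6%) and higher in 0 of 19 (median -0.10, -0.16 to -0.04 with 1 library left out). Of all genes 22.5% were lower and 22.3% higher, so the lower share of kinetochore genes was near that of all. Shares also went with level. Of 1681 genes with a mean of 100 to 500 CPM 31.1% were lower and 14.6% higher (median -0.09). The lower share of the anaphase-promoting complex, whose 19 genes summed to 2086 to 2400 CPM per library, was near that of this class. Under quantile normalization the medians were 0.01 for the class and -0.06 for the complex. Bub1b of the spindle checkpoint had 359 and 416 against 532 and 456.2 CPM. Autophagy genes were lower in 10 of 28 (median -0.11, -0.13 to -0.05 with 1 library left out), with the LC3 relative Gabarap at 51.3 and 57.2 against 74.0 and 75.3 CPM. Cytosolic chaperones were lower in 5 and higher in 1 of 21, a lower share near the 22.5% of all genes, and their median of -0.14 (-0.23 to -0.03 with 1 library left out) was -0.0055 under quantile normalization. The most abundant of them, Hsp90aa1, had 5323 and 7980.3 against 9491 and 10382 CPM. In Hsp90aa1 knockdown 1 lay well below the other 3 libraries. Of 15 tubulins 0 were higher and 4 lower, and Tubb2b (87.7 and 87.2 against 165 and 153 CPM), Tuba4a (94.1 and 102 against 172 and 176 CPM) and Tuba3a (5.29 and 8.26 against 13.1 and 13.3 CPM) stood at least 1.5-fold apart on the lower side, while the main beta tubulin Tubb5 overlapped. The median of all 15 tubulins was -0.11 (-0.27 to 0.16 with 1 library left out), and its sign turned with 1 library left out and under quantile normalization (0.04). That of the CCT chaperonin, which folds them, was -0.17 (-0.37 to 0.06 with 1 library left out), and -0.011 under quantile normalization. Regulators of cell death lay on both sides, with the BH3 proteins Pmaip1 (Noxa, 38.1 and 41.4 against 16.5 and 16.7 CPM) and Bcl2l11 (Bim, 20.4 and 17.5 against 9.98 and 11.3 CPM) higher and Bnip3, a mitophagy receptor, lower at 23.9 and 13.4 against 50.6 and 51.7 CPM. In Pmaip1 the libraries of each group were nearly equal.

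**Figure D4:**
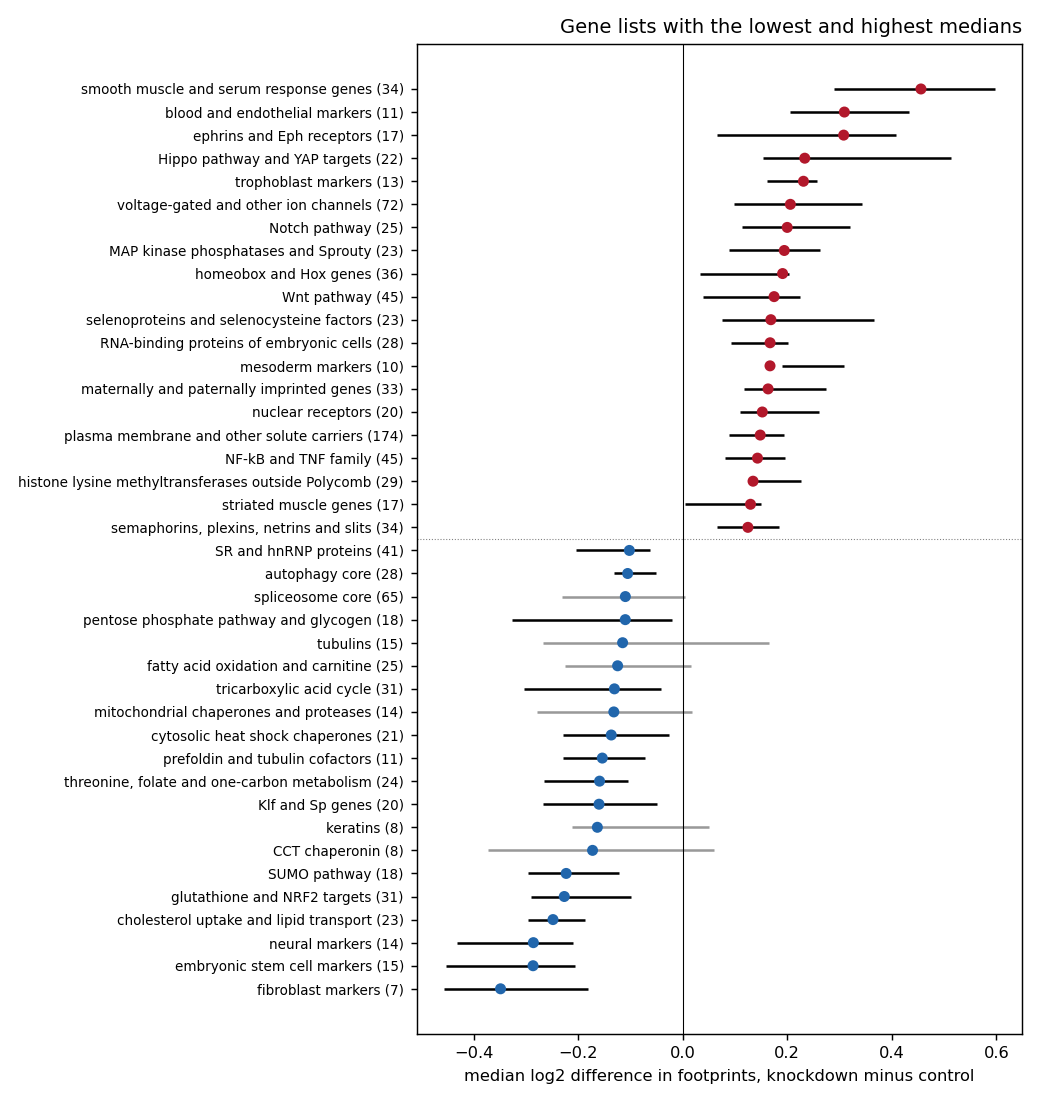
Median log2 difference in footprints of the 20 lists with the lowest and the 20 with the highest medians of 97, with the number of tested genes in brackets. Points are medians, lines run from the lowest to the highest median with 1 library left out, and grey lines mark lists whose sign turned; serum response genes lie highest at 0.46 and fibroblast markers lowest at -0.35.

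The labelled cell type was checked against its markers. All 15 embryonic stem cell markers were in the table, and they summed to 6231 and 6247 CPM in the knockdown and 8436 and 8044 CPM in the control. Zfp42, whose levels are given above, made up much of the difference between these sums. Its log2 difference of -1.28 was the lowest of the 15. Of the 15 markers 6 were lower and 3 higher in both knockdown libraries and 6 overlapped. Their median was -0.29 (-0.45 to -0.21 with 1 library left out) in footprints and -0.36 in total RNA. Pou5f1 (Oct4) overlapped at 863 and 871 against 1045 and 850.0 CPM. In bulk cells, fewer cells that express a marker and less of its mRNA per cell cannot be told apart. Trophoblast markers were higher in 6 and lower in 3 of 13 tested (median 0.23, 0.16 to 0.26 with 1 library left out), and their sum was 155 and 163 against 145 and 121 CPM. In total RNA their median was 0.003 over the 10 listed there. Fgfr2, the receptor that trophoblast stem cells depend on, had 8.78 and 11.5 against 2.44 and 3.17 CPM, while the defining factors Cdx2 and Elf5 were not listed. Mesoderm markers were higher in 5 and lower in 1 of 10 tested of 20, with Mixl1 and Tbx6 not listed, and they summed to between 23.1 and 30.3 CPM. Snai1, a driver of epithelial to mesenchymal transition, had 4.73 and 4.92 against 1.17 and 1.19 CPM. Blood and endothelial markers, with 11 of 23 tested and no globin listed, were higher in 4 and lower in 2 (median 0.31, 0.21 to 0.43 with 1 library left out). Their sums overlapped, at 75.6 and 85.2 against 84.8 and 83.7 CPM. On log2(CPM + 5) their median was 0.10, and in total RNA it was 0.06 over the 9 listed there. Striated muscle genes had 4 higher and 3 lower of 17. The part of these cells in the differences above was not tested.

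Neural markers lay on both sides or overlapped. Of 14 tested 6 were lower and 1 higher (median -0.29, -0.43 to -0.21 with 1 library left out), and the sum was 666 and 764 against 975 and 831 CPM. The median of these 14 in total RNA was -0.04. Nestin (Nes), an intermediate filament protein of neural progenitors, had 39.3 and 45.9 against 17.6 and 13.7 CPM. Lower were the microtubule proteins Mapt (9.34 and 5.13 against 15.4 and 19.6 CPM) and Stmn2 (238 and 273 against 465 and 341 CPM) and the growth cone protein Gap43 (28.1 and 21.6 against 49.6 and 40.1 CPM). The early neural factor Sox1 was not listed.

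Most genes at least 1.5-fold apart in footprints had groups that did not overlap in total RNA, on the same side. Both knockdown libraries of total RNA lay above both controls in 2916 (23.6%) and below both in 3075 (24.9%) of the 12358 genes measured in both. Of the 233 genes at least 1.5-fold apart on the higher side in footprints, 216 were in total RNA, where 193 (89.4%) were higher and 3 lower, with a median log2 difference of 0.76 in total RNA and 0.99 in footprints. Of the 226 on the lower side 220 were in total RNA, where 191 (86.8%) were lower and 2 higher, with medians of -0.83 and -1.01. The 3 that were lower in total RNA were Casq2, Jsrp1 and Mapk15, and the 2 that were higher were Mir291a and Rpl22-ps1, named here after their values were seen. Mapk15, an atypical MAP kinase, had 15.4 and 43.9 against 9.13 and 4.06 CPM in footprints and 1.34 and 0.977 against 1.37 and 2.33 CPM in total RNA. Casq2, Jsrp1 and Mapk15 had few total RNA reads, at most 2.33 CPM in any library.

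**Figure D5:**
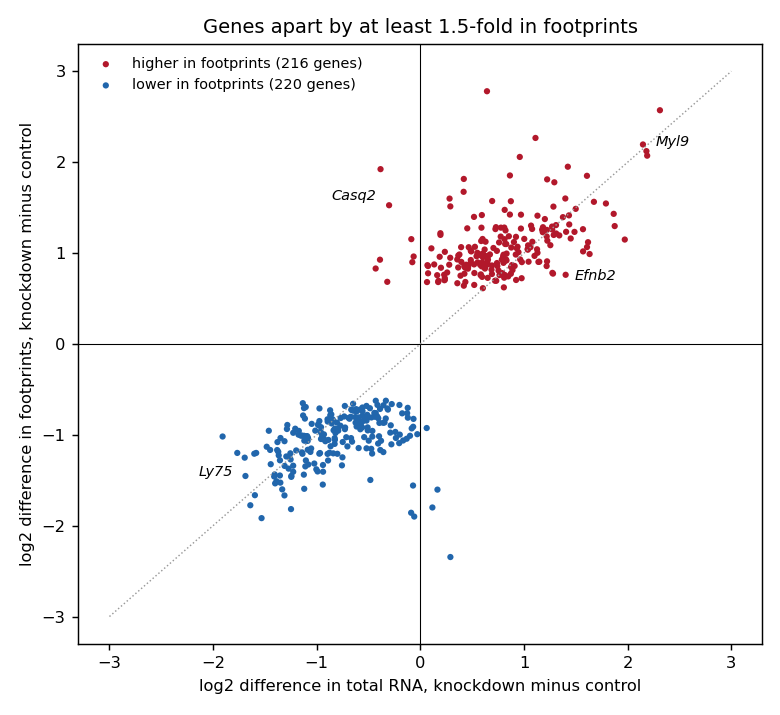
Log2 difference in total RNA against that in footprints, knockdown minus control, for the 216 and 220 genes at least 1.5-fold apart in footprints and measured in total RNA. Most points have the same sign on both axes, 193 higher and 191 lower in both kinds of library; the dotted line marks equal differences.

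Promoter letters of the separated genes were counted as a description, on both strands, and a gene with several starts was counted if any held the motif. A CArG box stood in 7 of 163 promoters (4.29%) of genes at least 1.5-fold apart on the higher side and 2 of 170 (1.18%) on the lower, against 1.38% of all. The 7 were Cnn2, Dusp5, Igf2, Lef1, Myl9, Tbc1d9 and Zfp36. Of these Cnn2, Dusp5 and Myl9 belong to the serum response list above, which was put together with earlier results of these data known. The higher share thus partly repeats that list. Zfp36 (tristetraprolin), which brings AU-rich mRNAs to decay and is itself an immediate early gene, had 8.55 and 9.10 against 2.34 and 4.86 CPM, and its box began 58 bases before the gene start.
Zfp36 (chr7:28379237-28379326, minus strand): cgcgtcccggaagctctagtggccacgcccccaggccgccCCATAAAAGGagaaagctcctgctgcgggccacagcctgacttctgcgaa
The TATA motif TATAAA stood in 12.3% of the higher and 11.8% of the lower promoters, against 7.46% of all. The GC box GGGCGG stood in 68.7% of the higher and 53.5% of the lower, against 65.6% of all, and the lower genes had a median of 11 CpG in the 250 bases against 16 for all. Genes that were merely not overlapping held CArG boxes in 1.37% (higher) and 1.53% (lower), near the share of all genes.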

How the data were processed

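The authors deposited 1 table of footprints and 1 of total RNA, whose library columns, named in the file headers, hold signal on a CPM scale. That scale was read from the deposited values, which are whole multiples of 1 step per column and sum to 894269 to 1058777 in footprints, and no label states it. Tools in the submitters' processing notes are edgeR 3.26.8, HTSeq 0.11.2, TopHat2 2.1.1 and Bowtie 1.2.3, and the build is mm9. Their roles and the use of strand in counting are not stated there. Reads were read back as whole multiples of the lowest value (within 0.01 read for 100% of genes). For RPF control 2 an automatic check could not tell that step from rounding, so no count test used it. The filter of genes did use its reads. The authors' own fold changes and p-values in those tables were not used. A few members of lists are not reported here by name.

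Genes were kept by filterByExpr (edgeR 4.0.16, minimum count 10, minimum total 15), and knockdown was compared with control by limma 3.58.1 in R 4.3.3 on log2(CPM + 1), 2 libraries against 2 with 2 residual degrees of freedom, variances moderated along the mean level (trend), and Benjamini-Hochberg adjustment over 12723 genes at 0.05. The fit was tested on simulated data. P-values measure only the spread between these libraries. The genes, groups and the 97 gene lists (3223 distinct genes) were chosen with earlier results of these data known, and lists are described by counts and medians with no test. Beyond 5 genes always named (Eif4a2, Eif4a1, Eif4a3, H3f3a, H3f3b), genes were named as the 15 with the widest distance between nearest libraries per direction (mean of at least 5 CPM, without predicted genes and small RNAs) and, per list, up to 4 with the widest distance and the 1 or 2 with the most footprints. Named after their values were seen were Acta2, Actg2, Axin2, Bmp4, Cnn1, Dpys, Dusp1, Dusp6, Fos, Fosb, Fosl1, Fosl2, Fzd7, Fzd8, Gclm, Jsrp1, Jun, Junb, Lgr4, Mapk15, Mettl5, Mir291a, Mrtfa, Mrtfb, Myl12a, Notum, Nqo1, Pou5f1, Rpl22-ps1, Sfrp1, Srf, Tagln, Tagln2, Tbc1d9, Tpm1, Tpm2, Trmt12, Vim, Xrcc5, Zfp36, Zfp36l2 and Znrf3. Biotypes and promoters were matched by symbol to RefSeq tables of GRCm38.p6 (12621 and 9800 of the genes tested), used for names and promoter letters only.

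Alternatives were other pseudocounts (0.5 and 5), no filter, a mean of at least 10, median centring, quantile normalization, no variance trend, each library left out, a block on the replicate number, and edgeR's quasi-likelihood test on read counts without RPF control 2. The counts of list members without each library were added after seeing the data.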

Additional observations from a re-analysis of the deposited data

How the results depend on the processing

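Without 1 library limma called between 1 gene (without control 2) and 36 genes (without knockdown 2). Median centring gave 40, and edgeR's quasi-likelihood test without control 2 gave 3; other pseudocounts, filters, quantile normalization and no variance trend gave 0. Replicate numbers are shared between the groups, but the labels tie them to no culture, batch or hairpin. Same-numbered libraries deviated together with a correlation of 0.166 over all genes tested and 0.231 over genes with a mean of at least 10 CPM. With a replicate block limma called 21. Leaving out 1 library, which takes fewer libraries to separate, gave between 4134 and 5124 genes with both groups apart on the higher side and between 4296 and 4913 on the lower, and between 493 and 934 and between 494 and 756 that were at least 1.5-fold apart. Restricted to a mean of at least 10 CPM (8205 genes), 1713 were apart on the higher side and 2059 on the lower, a balance that leaned to the lower side, and 88 (higher) and 127 (lower) by at least 1.5-fold. A pseudocount of 5 left 71 and 111. Of the 97 lists 54 kept the sign of their median with every single library left out, 30 positive and 24 negative, and between 11 and 26 turned per library, most without knockdown 1. Quantile normalization turned 17 and median centring 10. Depth limits genes below about 5 CPM, where 1 read is 0.0991 to 0.113 CPM and the log2 difference is understated.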

Other observations

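Gene families grouped by the letters that open their symbols, with no regard to a list, held a few that lay to one side. Of 14 tested genes whose symbols begin with Pla, mostly phospholipases and plasminogen activators, 0 were higher and 10 lower in both knockdown libraries, with a median log2 difference of -0.33 in footprints and -0.50 in total RNA. Pla2g1b, a secreted phospholipase, had 3.94 and 3.66 against 12.3 and 8.62 CPM, Pla2g7, which cleaves platelet-activating factor, 5.40 and 3.98 against 8.39 and 11.1 CPM and Pla2g4e 2.48 and 2.62 against 6.27 and 4.86 CPM. Of 23 Klhl genes, many of them substrate adaptors of cullin 3 ubiquitin ligases, 12 were higher and 0 lower (median 0.23), with Klhl23 at 5.51 and 5.44 against 3.19 and 2.18 CPM and Klhl21 at 43.1 and 39.1 against 29.3 and 24.0 CPM. Of 11 Galnt genes, which start O-linked glycosylation, 6 were higher and 1 lower (median 0.35), with Galnt7 at 22.3 and 22.2 against 11.047 and 10.7 CPM. The Arid genes, several of them subunits of chromatin remodelers, had 6 higher and 0 lower of 10 (median 0.22), and Arid1a stood at 433 and 523 against 366 and 316 CPM. The families were picked from 148 for these counts.

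On the deposited scale the difference also went with level. Of 316 genes with a mean of at least 500 CPM 29 were higher and 128 lower in both knockdown libraries, with a median of -0.16 (-0.27 to -0.03 with 1 library left out), whereas of 2843 genes between 1 and 5 CPM 692 were higher and 507 lower. Under quantile normalization the medians of these classes were -0.02 and 0.01, so that this trend depends on the scaling. The counts and medians of the lists above were not adjusted for level.

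A few genes for small RNAs and a gene with uneven libraries stood far apart and were named after their values were seen. Mir291a had 55.6 and 48.3 against 139 and 513 CPM and Mir295 5.06 and 7.53 against 19.12 and 32.8 CPM, both of the embryonic stem cell microRNA cluster, while their total RNA was 14.5 and 13.9 against 10.7 and 12.2 CPM and 9.71 and 7.66 against 8.56 and 9.98 CPM. Fam124a had 393 and 60.2 against 39.2 and 11.7 CPM, with the libraries of each group several-fold apart from each other.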
